A study of Rattus norvegicus with 6 samples.

Results

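The genes described here are 31 genes of cholesterol and fatty acid synthesis that are known as targets or controllers of the sterol regulatory element binding proteins (SREBPs), out of 25399 genes listed in the deposited matrices. They were chosen by symbol from a list of named genes and not by a cut on their values, but with earlier results of these data known. All 31 symbols were found. By role, 7 act in the mevalonate and isoprenoid steps, 11 in the steps from squalene to cholesterol, 5 in sterol sensing and SREBP control, 1 in sterol transport and 7 in the synthesis and modification of fatty acids.

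The data are 6 droplet libraries of 3′ transcript ends made from dissociated brain cells of the rat strain Sprague Dawley, 3 labelled sham and 3 labelled pontine infarction, an ischaemic lesion of the pons of the brainstem. The title of the series speaks of stroke in the pons, and all 6 libraries carry the same age label, postnatal day 21, without telling if the rats were operated or killed at that age. No label used here states the time after infarction, the sex of the rats or how the infarct was made. The labels number the libraries 1 to 3 in each group without saying that each is 1 animal, and a p-value therefore reflects only how far these libraries vary, which may be technical variation.

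Cells make cholesterol from acetyl-CoA through mevalonate, farnesyl diphosphate, squalene and lanosterol. When membranes of the endoplasmic reticulum are low in sterol, the escort protein SCAP carries the SREBP precursors to the Golgi, where they are cut to release a transcription factor. INSIG proteins hold the complex back when sterol is plentiful. SREBP-2 acts mainly on genes of cholesterol synthesis and SREBP-1 mainly on genes of fatty acid synthesis. The brain makes its own cholesterol because the blood-brain barrier keeps out lipoproteins, and myelin holds most of it.

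The reference promoters of 4 members on which the results turn are shown because SREBPs act there together with NF-Y, which binds the letters CCAAT, and Sp1, which binds GGGCGG. Each is the 250 bases before the annotated start, 5′ to 3′ in the direction of the gene, from RefSeq (assembly GRCr8), with the letters of CCAAT and GGGCGG on either strand in capitals. Srebf2 encodes SREBP-2, Msmo1 encodes sterol C4-methyl oxidase, Fdps encodes farnesyl diphosphate synthase and Hmgcs1 encodes cytosolic HMG-CoA synthase.
Srebf2, chr7:115543057-115543306, plus strand: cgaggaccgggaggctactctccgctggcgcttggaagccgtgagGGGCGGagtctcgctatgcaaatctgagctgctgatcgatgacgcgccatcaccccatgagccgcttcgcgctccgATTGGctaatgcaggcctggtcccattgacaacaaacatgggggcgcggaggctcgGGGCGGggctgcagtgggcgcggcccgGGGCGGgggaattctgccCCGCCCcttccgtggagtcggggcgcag
Msmo1, chr16:29746863-29747112, plus strand: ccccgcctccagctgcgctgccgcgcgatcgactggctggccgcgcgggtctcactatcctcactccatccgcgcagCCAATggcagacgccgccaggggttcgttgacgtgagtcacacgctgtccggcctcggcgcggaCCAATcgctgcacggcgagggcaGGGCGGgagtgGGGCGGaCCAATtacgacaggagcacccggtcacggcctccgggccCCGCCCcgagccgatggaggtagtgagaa
Fdps, chr2:176804817-176805066, minus strand: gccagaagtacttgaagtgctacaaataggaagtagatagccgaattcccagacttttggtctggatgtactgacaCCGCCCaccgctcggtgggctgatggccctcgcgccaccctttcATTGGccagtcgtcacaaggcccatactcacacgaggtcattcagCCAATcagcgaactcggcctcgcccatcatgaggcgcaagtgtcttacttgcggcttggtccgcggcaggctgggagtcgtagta
Hmgcs1, chr2:53382054-53382303, plus strand: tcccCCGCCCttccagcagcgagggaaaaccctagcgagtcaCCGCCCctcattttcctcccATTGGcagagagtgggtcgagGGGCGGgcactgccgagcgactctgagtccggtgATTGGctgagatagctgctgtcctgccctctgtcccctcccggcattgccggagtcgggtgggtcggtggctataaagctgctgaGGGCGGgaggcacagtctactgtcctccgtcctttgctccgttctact

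The promoter table held 24 of the 31 members, with 25 starts because Srebf1 has more than 1. Pmvk, Fdft1, Sqle, Stard4, Acaca, Fasn and Elovl6 had no entry. CCAAT, on either strand, stood in the 250 bases of 18 of the 24 members, against 34.0% of all 33469 promoters in the table. GGGCGG stood in 20 of the 24 members, against 30.5% of all promoters. CACGTG, the E-box letters that SREBP-1 can also bind, stood in 3 members, against 5.59% of all promoters. TCACNCCAC, one spelling of the sterol regulatory element, stood in 0 members and 0.974% of all promoters, which says only that these letters are not in this window. All motifs were searched on both strands, and matches that share bases with another motif were kept. They are matches of letters and not measured binding.

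The libraries held 44011 cell barcodes and between 56416475 and 69924334 UMIs each, and 37843 cells were kept, 5868 to 7255 per library. Any pair of libraries shared 8 to 21 barcodes. Cell classes were named from marker genes and are given as X-like. The groups differed in the cells they held: smooth muscle-like cells made up 35.1% to 45.7% of each sham library and numbered 1 at most in an infarction library, while phagocytic macrophage-like cells made up 25.6% to 38.4% of each infarction library and numbered 3 at most in a sham library. The library sham 3 stood apart, since most of its microglia-like cells lay in a cluster that held few cells of the other sham libraries, and results are therefore also given without it. Levels are given as CPM, the usual depth-scaled count: the UMIs of a gene relative to all UMIs of the cells summed. Where a test is given, the CPM are adjusted by TMM factors, which correct for differences in RNA composition between libraries.

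In sham tissue, most members had their highest level relative to all UMIs of a class in glia. Of the 29 members with at least 100 UMIs in the sham libraries, 19 had their highest mean CPM in oligodendrocyte-like cells and 7 in astrocyte-like cells, among 15 classes with at least 20 cells in a sham library. Oligodendrocyte-like cells reached that number only in sham 3 (121 cells), so their sham levels rest on that library, with intervals that cover counting error only. These levels are a description, because the classes were built from the same cells. They do not say which class held most transcripts: of 30498 Fdps UMIs in all sham cells, 1452 were in oligodendrocyte-like cells of sham 3. Some ranks rest on near ties, such as Acly at 197 CPM in oligodendrocyte-like and 196 ± 13.9 in astrocyte-like cells. The share of all genes that are highest in these classes was not measured.

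**Figure D1:**
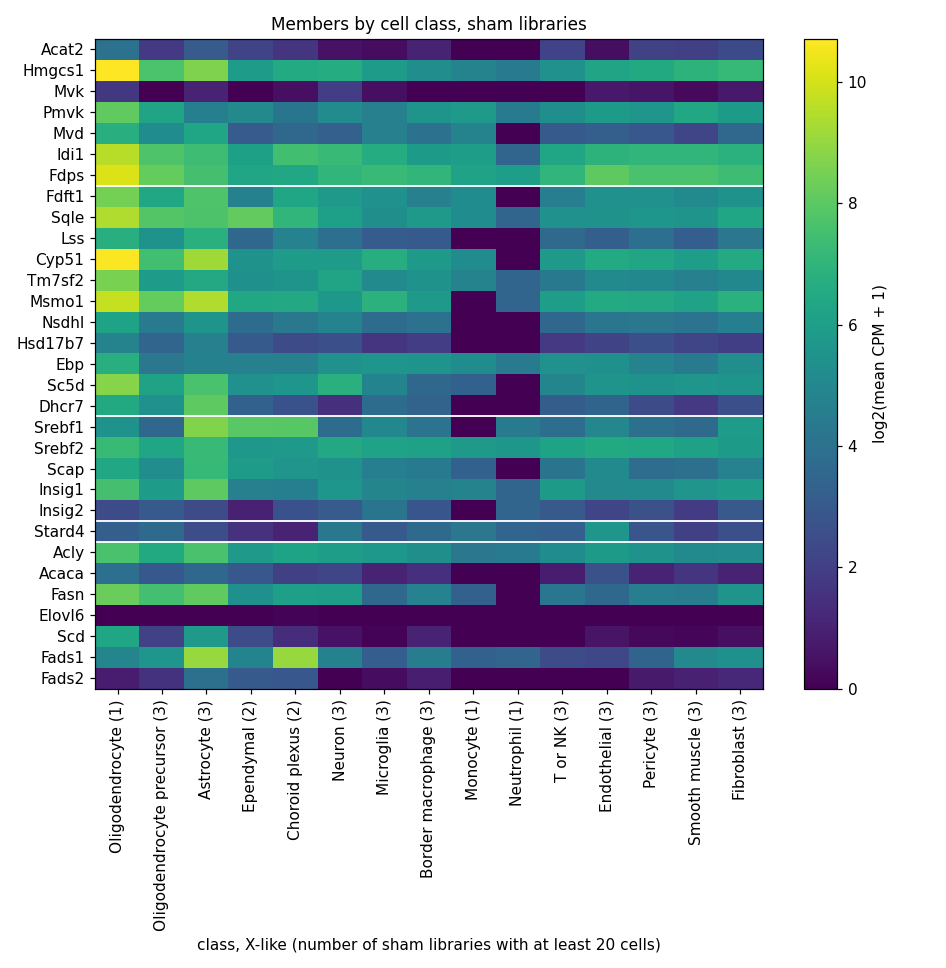
Mean CPM of the 31 members in 15 cell classes of the sham libraries, as log2(CPM + 1) on the colour scale, with the number of sham libraries behind each class in brackets. White lines separate the roles. The oligodendrocyte-like column, from 1 library, and the astrocyte-like column are the brightest for most genes of cholesterol synthesis, and Fads1 is brightest in choroid plexus-like and astrocyte-like cells.

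Hmgcs1, which makes HMG-CoA at the entry of the mevalonate branch, was at 1674 CPM in oligodendrocyte-like cells of sham 3 (95% Poisson interval 1604 to 1746). It was at 401 ± 75.3 CPM in astrocyte-like cells (SD, n = 3), at 203 ± 88.5 in oligodendrocyte precursor-like cells and at 58.5 ± 17 in microglia-like cells. Fdps was at 1121 CPM in oligodendrocyte-like cells (1064 to 1179.8), at 286 ± 84.3 in their precursors and at 265 ± 83.9 in endothelial-like cells, and the last pair did not differ beyond their spread. Cyp51, the lanosterol demethylase, was at 1595 CPM in oligodendrocyte-like cells (1527 to 1665) and at 582 ± 137 in astrocyte-like cells. For these 3 genes the level in oligodendrocyte-like cells of sham 3 lay above the next class by more than its counting interval and the spread of that class. For others the gap was smaller: Msmo1 was at 879 CPM (829 to 932) against 693 ± 145, and Fasn, the fatty acid synthase, at 303 CPM (273 to 334) against 269 ± 5.49.

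Of the 5 sensing genes, 4 had their highest mean in astrocyte-like cells. Srebf1, which encodes SREBP-1, was at 413, 409.8 and 393 CPM in astrocyte-like cells of sham 1, 2 and 3, at 248 ± 63.2 in ependymal-like cells (n = 2) and at 244 ± 10.6 in choroid plexus-like cells (n = 2). The values in ependymal-like and choroid plexus-like cells did not differ beyond their spread. Srebf2 was spread more evenly, with 149 ± 18.7 CPM in astrocyte-like cells, 148 in oligodendrocyte-like cells (128 to 171), 89.1 ± 15.9 in endothelial-like cells and 70.9 ± 12.2 in microglia-like cells. Insig1 was at 264 ± 60.2 CPM and Scap at 145 ± 12.7 CPM in astrocyte-like cells. Insig2, the second retention protein, was instead highest in microglia-like cells, at 16.8, 15.2 and 18.7 CPM, against 10.1 CPM in neutrophil-like cells, measured in sham 2 only, and 7.47 ± 7.29 in neuron-like cells.

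A few members had other patterns. Dhcr7, which makes cholesterol from its last precursor in one branch of the pathway, was at 263 ± 61.6 CPM in astrocyte-like cells and at 91.1 CPM in oligodendrocyte-like cells of sham 3. Stard4, a cytosolic sterol carrier, was highest in endothelial-like cells, at 49.0 ± 15.6 CPM. Fads1, the delta-5 fatty acid desaturase, was at 539 ± 76.4 CPM in choroid plexus-like cells (n = 2) and at 525 ± 66.2 in astrocyte-like cells (n = 3), values that did not differ beyond their spread. Elovl6, a fatty acid elongase, had 2 UMIs in all sham cells and Mvk, mevalonate kinase, had 58, so neither was ranked.

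Over all cells of a library together, 21 of the 31 members were lower after infarction and 4 were higher (30 tested, edgeR's quasi-likelihood test, adjusted p under 0.05 over all genes). The background of this comparison was high: 38.2% of the 14614 genes tested were called lower and 33.3% higher. The median log2 fold change, infarction over sham, was -0.69 over the 30 members and -0.13 over all genes. These sums carry the mix of cells, so fewer cells of a class and less RNA of a gene per cell cannot be told apart here. Lower calls fell in every role with more than 1 member: 3 of 7 mevalonate genes, 9 of 11 genes from squalene to cholesterol, 4 of 5 sensing genes and 5 of the 6 fatty acid genes tested. Without sham 3, 19 members were lower and 5 higher.

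Among the mevalonate genes, Hmgcs1 was at 101, 92.9 and 128 TMM-adjusted CPM in sham 1, 2 and 3 and at 31.4, 30.8 and 31 in infarction 1, 2 and 3. Every infarction library lay below every sham library, and the log2 fold change was -1.79 ± 0.13 (SE, adjusted p 7.37e-05). Idi1, the isopentenyl diphosphate isomerase, was at 122, 122 and 116 against 67.5, 72.0 and 55.9 TMM-adjusted CPM (-0.88 ± 0.11, adjusted p 0.000594). The groups did not overlap for Idi1 either.

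In the later steps, Sqle, the squalene epoxidase, was at 60.0, 59.9 and 62.6 TMM-adjusted CPM in sham and at 24, 27.9 and 23.9 after infarction (log2 fold change -1.27 ± 0.09, adjusted p 6.33e-05). Fdft1, the squalene synthase, was at 40.0, 44.4 and 43.6 against 21.2, 22.9 and 20.9 (-0.98 ± 0.08, adjusted p 0.000120). Sc5d, the sterol C5-desaturase, was at 44.2, 42.1 and 45.9 against 12.9, 18.7 and 13.2 (-1.56 ± 0.16, adjusted p 0.000288). For each of the 3 genes the groups were apart. Libraries within a group lay close together, except that infarction 2 stood above the other infarction libraries for Sc5d.

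Of the sensing genes, Srebf2 was at 61.4, 56.3 and 71.0 TMM-adjusted CPM in sham and at 37.6, 30.7 and 29.0 after infarction (log2 fold change -0.95 ± 0.14, adjusted p 0.00115). Srebf1 was at 45.5, 68.4 and 33.7 against 23.1, 28.5 and 27.8 (-0.89 ± 0.26, adjusted p 0.0224), with a wide spread among the sham libraries. Its call was lost when sham 1 (adjusted p 0.0544), infarction 1 (0.0757), infarction 2 (0.0543) or infarction 3 (0.0586) was left out. Insig1 was at 39.0, 38.3 and 41.8 against 31.6, 34.5 and 28.3 (-0.34 ± 0.10, adjusted p 0.0202). Its fold change was -0.03 (adjusted p 0.890) in cells with at most 10% mitochondrial UMIs, and the call was also lost without infarction 1 (0.0582) or infarction 3 (0.0671). Scap was at 20.4, 22.2 and 21.9 against 19.1, 18.3 and 16.8 (-0.25 ± 0.09, adjusted p 0.0401), a call that did not hold when any of the 6 libraries was left out (adjusted p 0.0534 to 0.137).

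The largest falls over all cells were those of the desaturase genes Fads1 and Fads2. Fads1 was at 85.7, 146 and 37.3 TMM-adjusted CPM in sham and at 6.01, 8.57 and 6.44 after infarction (log2 fold change -3.68 ± 0.52, adjusted p 0.00115). Fads2, the delta-6 desaturase, was at 1.69, 2.17 and 1.04 against 0.180, 0.245 and 0.109 (-3.19 ± 0.44, adjusted p 0.000943). Within the sham group, Fads1 stood in the order of the choroid plexus-like cells, of which sham 1, 2 and 3 held 184, 386 and 17. The infarction libraries held 2 at most, and the part of these cells in the fall was not tested. The other members called lower were Fdps (-0.41), Lss (-0.69), Cyp51 (-0.73), Msmo1 (-0.86), Nsdhl (-0.47), Hsd17b7 (-1.30), Dhcr7 (-0.93), Acly (-0.39), Acaca (-1.12) and Fasn (-0.69), on the log2 scale.

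The 4 members that rose over all cells came from different steps. Mvd, the mevalonate diphosphate decarboxylase, was at 7.37, 8.52 and 12.5 TMM-adjusted CPM in sham and at 28.9, 28.0 and 25.9 after infarction (log2 fold change 1.54 ± 0.21, adjusted p 0.000911). Stard4 was at 4.30, 4.38 and 4.89 against 10.1, 11.7 and 13.1 (1.36 ± 0.14, adjusted p 0.000275). Ebp, the sterol isomerase, was at 21.0, 24 and 25.7 against 43.1, 48.0 and 48.0 (0.98 ± 0.10, adjusted p 0.000313). The groups did not overlap for any of the 3 genes. Insig2 was at 3.84, 4.46 and 5.55 against 12.7, 8.02 and 7.73 (1.04 ± 0.25, adjusted p 0.0106), but in cells with at most 10% mitochondrial UMIs its fold change was 0.70 (adjusted p 0.0634). Not called were Acat2 (0.02), Mvk (-0.63), Pmvk (-0.29), Tm7sf2 (-0.08) and Scd (0.47), and Elovl6 was not tested, with 0, 2 and 0 UMIs in sham and 2, 0 and 0 after infarction.

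The classes that make up each group held these 4 genes at unlike plain CPM. In smooth muscle-like cells of sham, Mvd was at 3.66 ± 0.25 CPM and Stard4 at 3.12 ± 0.117. After infarction, Mvd was at 19.5 ± 1.42 CPM and Stard4 at 5.72 ± 1.30 in phagocytic macrophage-like cells, and at 65.8 ± 3.92 and 40.9 ± 2.45 in dendritic-like cells. Ebp was at 19.8 ± 0.604 CPM in smooth muscle-like cells of sham and at 40.8 ± 4.05 in phagocytic macrophage-like cells after infarction. Insig2 was at 2.67 ± 0.564 CPM in smooth muscle-like cells of sham and at 24.1 ± 10.7 in neutrophil-like cells after infarction, where the 3 libraries had 35.0, 23.5 and 13.7. How much of each rise comes from the mix of cells was not tested.

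Only 3 classes had at least 20 cells in every library and could be tested within themselves: microglia-like, T or NK-like and endothelial-like cells. Oligodendrocyte-like cells, which held the highest sham levels, had 14, 18 and 121 cells in sham and 14, 27 and 103 after infarction and were not tested. Their Hmgcs1 was at 1674 CPM in sham 3 (1604 to 1746), at 411 in infarction 2 (95% Poisson interval 310.3 to 533) and at 472 in infarction 3 (420.5 to 528). Their Fdps was at 1121 CPM in sham 3, 631 (505 to 779) in infarction 2 and 433 (384 to 487) in infarction 3. Srebf2 was at 148 CPM in sham 3, 88.0 (45.5 to 154) and 148 (119.9 to 181), values whose intervals overlap. The cells of the groups were spread differently over sub-clusters: the sub-cluster led by Nfasc and Bcas1 held 61.1% of the infarction cells and 13.7% of the sham cells, whose largest sub-cluster held 43.1%. With 1 sham library these values make no comparison between groups.

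In microglia-like cells, 15 of the 31 members were lower after infarction and 2 were higher, with 26 tested by edgeR's quasi-likelihood test. Of all 10212 genes tested in these cells, 31.8% were called lower and 31.3% higher. The median log2 fold change was -0.47 over the 26 members and -0.04 over all genes. Lower members were 4 of the 5 mevalonate genes tested, 7 of 11 genes from squalene to cholesterol, 3 of 5 sensing genes and 1 of 4 fatty acid genes. Acat2, Mvk, Elovl6, Scd and Fads2 had too few UMIs to be tested. Without sham 3, 13 members were lower and 2 higher, and DESeq2 called 12 lower and 3 higher.

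**Figure D2:**
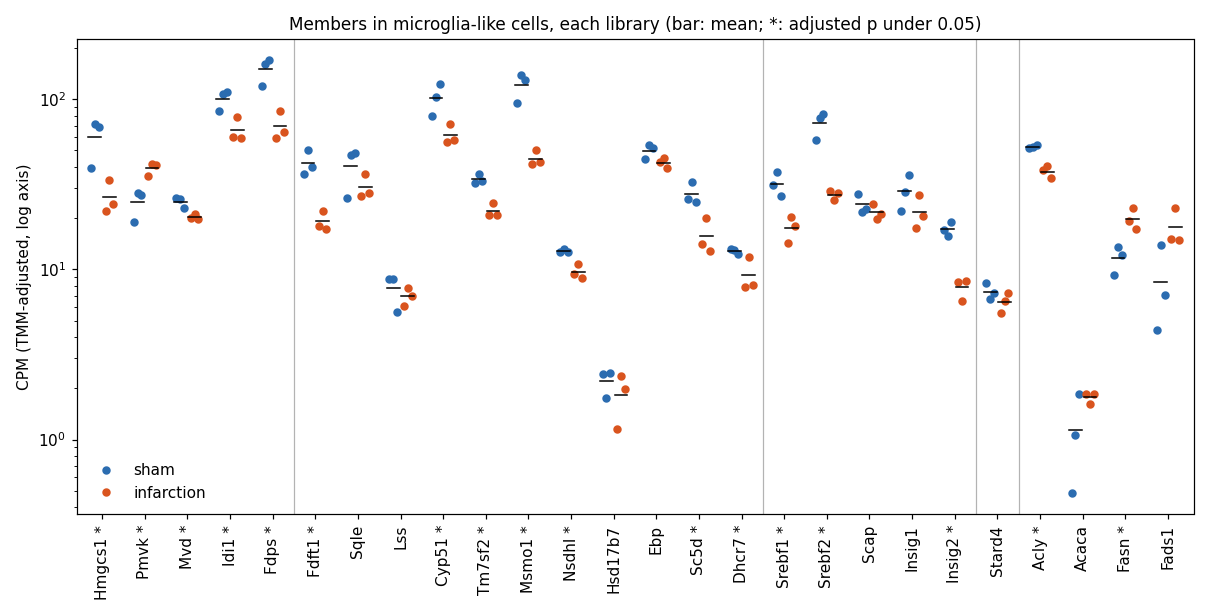
TMM-adjusted CPM (log axis) of the 26 members tested in microglia-like cells, 1 point per library (blue sham, orange infarction), with the group mean as a bar and an asterisk at an adjusted p under 0.05. Grey lines separate the roles. Msmo1, Fdps, Srebf2 and Fdft1 have all sham points above all infarction points, and Pmvk and Fasn have them below.

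Among the sensing genes, Srebf2 was at 58.0, 77.6 and 81.7 TMM-adjusted CPM in microglia-like cells of sham and at 28.9, 25.7 and 28.1 after infarction. All infarction libraries were below all sham libraries, with a log2 fold change of -1.42 ± 0.12 (adjusted p 5.04e-06). Insig2 was at 17.1, 15.7 and 19.0 against 8.47, 6.55 and 8.53 (-1.14 ± 0.16, adjusted p 0.000107), the opposite direction to its change over all cells. Srebf1 was at 31.2, 37.6 and 27.1 against 14.3, 20.3 and 18.1 (-0.87 ± 0.17, adjusted p 0.00106). The groups did not overlap for any of these 3 genes.

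Scap and Insig1 did not pass the test in microglia-like cells. Scap was at 27.8, 21.8 and 22.8 TMM-adjusted CPM in sham and at 24.2, 19.8 and 21.2 after infarction (log2 fold change -0.11 ± 0.13, adjusted p 0.599), with groups that overlapped. Insig1 was at 22.0, 28.5 and 35.9 against 17.5, 27.2 and 20.6 (-0.47 ± 0.21, adjusted p 0.0746), also with overlap. Insig1 did pass without sham 1 (-0.58, adjusted p 0.0362) or without infarction 2 (-0.64, adjusted p 0.0181). Over all alternatives run in these cells, Scap or Insig1 gained a call in 6 cases, counted by gene and setting, with these included.

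In the mevalonate and isoprenoid steps, Fdps was at 119, 162 and 169 TMM-adjusted CPM in microglia-like cells of sham and at 59.6, 85.3 and 64.1 after infarction (log2 fold change -1.13 ± 0.18, adjusted p 0.000951). Hmgcs1 (-1.22 ± 0.25), Idi1 (-0.63 ± 0.13) and Mvd (-0.28 ± 0.11) were also called lower. Pmvk, the phosphomevalonate kinase, rose: it was at 19.0, 28.1 and 27.3 against 35.4, 41.9 and 41.2 (0.61 ± 0.14, adjusted p 0.00271). Pmvk and its neighbour in the pathway, Mvd, therefore moved in opposite directions in these cells, each with groups that did not overlap.

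In the steps from squalene on, Msmo1 was at 95.1, 139 and 129 TMM-adjusted CPM in sham and at 41.5, 50.3 and 42.6 after infarction (log2 fold change -1.45 ± 0.14, adjusted p 1.91e-05). Fdft1 was at 36.6, 50.3 and 39.8 against 18.0, 22.2 and 17.2 (-1.16 ± 0.15, adjusted p 6.04e-05). Tm7sf2, a sterol C14-reductase, was at 32.2, 36.4 and 32.9 against 20.8, 24.7 and 21.0 (-0.62 ± 0.11, adjusted p 0.000798). All 3 genes had every infarction library below every sham library. Cyp51 (-0.75), Sc5d (-0.84), Dhcr7 (-0.47) and Nsdhl (-0.40) were also called lower, on the log2 scale. Sqle (-0.48), Lss (-0.10), Hsd17b7 (-0.32) and Ebp (-0.25) were not called, nor was the transporter Stard4 (-0.19).

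The fatty acid genes did not move together. Acly, the ATP citrate lyase that supplies cytosolic acetyl-CoA, was at 51.7, 52.4 and 53.5 TMM-adjusted CPM in microglia-like cells of sham and at 38.2, 40.3 and 34.3 after infarction (log2 fold change -0.48 ± 0.09, adjusted p 0.000987). Fasn, further down the same branch, was at 9.27, 13.5 and 12.1 against 19.3, 23.0 and 17.3 (0.72 ± 0.16, adjusted p 0.00239). The groups did not overlap for either gene. Over all cells of the libraries Fasn had been called lower, so its direction differed between the pooled sums and the microglia-like cells. Fads1 was at 4.39, 13.9 and 7.08 against 15.1, 23.1 and 14.8 (0.96 ± 0.36, adjusted p 0.0532) and Acaca, the acetyl-CoA carboxylase, had 0.38 ± 0.41, and neither passed the test.

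The share of microglia-like cells with a UMI was set at a fixed depth by thinning each cell to 1500 UMIs, which left out 68, 250 and 307 shallower cells in sham and 26, 59 and 42 after infarction. Srebf2 was then seen in 10.5 ± 1.60% of sham cells and 4.94 ± 1.30% of infarction cells, and Msmo1 in 14.7 ± 1.81% and 5.88 ± 0.597%. Fasn was seen in 2.03 ± 0.162% and 3.65 ± 0.0662%. Before thinning, Srebf2 was seen in 24.7%, 29.4% and 33.5% of sham cells and 36.9%, 19.2% and 25.3% of infarction cells, whose median depth was 4960 to 5276 UMIs in sham and 8311 to 16872.5 after infarction. The exact two-sided permutation p was 0.10 for each of Srebf2, Msmo1 and Fasn, the smallest that 3 against 3 libraries allow, and 0.282 adjusted over the 31 members. It was also 0.10 for Hmgcs1, Fdps, Fdft1, Tm7sf2, Sc5d, Insig2 and Pmvk, each in the direction of its call, and for Ebp (7.15 ± 0.860% and 5.53 ± 0.628%), which was not called. These shares come from the same UMIs as the calls. They were taken for the 31 members only, so no share over all genes stands beside them. For the other members called in microglia-like cells, Mvd, Idi1, Cyp51, Nsdhl, Dhcr7, Srebf1 and Acly, the thinned shares of the groups overlapped. Acly was seen in 6.99 ± 1.60% of sham cells and 7.00 ± 0.828% of infarction cells, and Idi1 in 10.7 ± 2.61% and 9.23 ± 0.863%. No class should lack these genes, so none served as a background of free RNA.

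The microglia-like cells of the 2 groups were mostly in different clusters. Cluster 5, led by Ccl4, Tnfsf9 and Cd83 with the cell cycle genes Mki67 and Top2a, held 93.3% of the infarction cells of the class and 4.70% of its sham cells. Clusters 11, 12 and 14, led by Tmem119 and P2ry12, by Tmem119 and C3, and by Cst3 and Anxa3, held the other sham cells. Cells with a UMI of Mki67, Top2a, Cdk1, Ccnb1 or Birc5 made up 4.93% to 6.31% of the class in sham and 43.4% to 66.2% after infarction. Median mitochondrial shares were 4.76% to 5.11% and 7.37% to 7.71%. Among cells with no UMI of the 5 cell cycle genes, 14 members were lower and 2 higher of 24 tested, in an alternative chosen after seeing the data. There Srebf2 changed by -1.34 (adjusted p 4.82e-05), Msmo1 by -1.70 (8.18e-06), Fdft1 by -2.09 (5.45e-06) and Fdps by -1.14 (3.23e-05) on the log2 scale, while Srebf1 was no longer called (-0.45, adjusted p 0.103). The share of all genes called in that alternative is not given. Deeper cells are more likely to hold a cell cycle UMI, and median depth was 4960 to 5276 UMIs in sham and 8311 to 16872.5 after infarction. The cells kept can therefore differ in depth as well as in cycling.

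Within cluster 5 itself, which sham 1 entered with 20 cells and sham 3 with 128, Srebf2 was at 50.9 and 80.5 plain CPM in sham and at 29.4, 25.7 and 29.1 after infarction. Msmo1 was at 102 and 99.5 CPM in sham and at 42.1, 51.1 and 44.2 after infarction. In cluster 11, Srebf2 was at 53.0 and 81.2 CPM in sham 1 and sham 3 and at 37.5 and 25.5 in infarction 2 and 3, from 57 and 56 infarction cells. Both genes had every infarction value below every sham value inside each of these clusters, although Srebf2 rested on 9 UMIs in sham 1 in cluster 5 and on 9 in infarction 3 in cluster 11. Msmo1 in cluster 11 was at 84.8 and 131 CPM in sham 1 and 3 and at 45.1 and 34.0 in infarction 2 and 3. Fasn was less clear inside cluster 5, at 22.6 and 7.24 CPM in sham and at 19.6, 23.1 and 17.9 after infarction, so its groups overlapped there. These values were not tested.

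**Figure D3:**
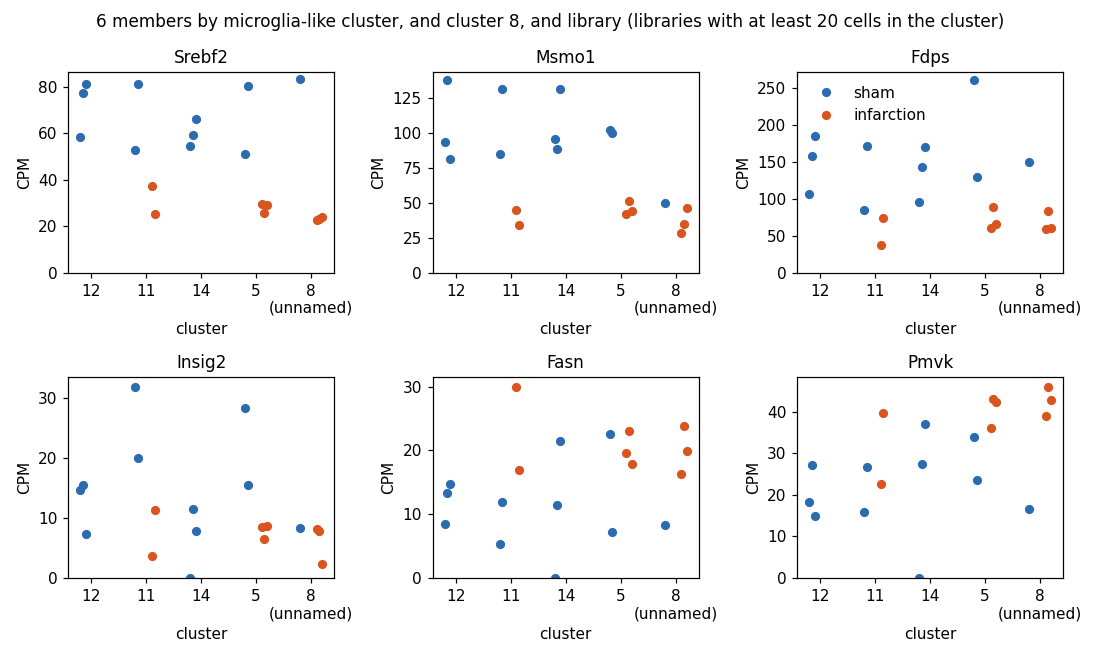
Plain CPM of 6 members in 4 microglia-like clusters and the unnamed cluster 8, for each library with at least 20 cells there (blue sham, orange infarction, 1 point per library). Srebf2 and Msmo1 have the infarction points below the sham points in clusters 5 and 11. Cluster 8 holds 1 sham library, where Msmo1 rests on 6 UMIs, and the points of Fasn overlap in cluster 5 and those of Pmvk in cluster 11.

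Cluster 8 scored highest for microglia but stayed unnamed, as its cells were shallow (median 2522 UMIs) and its leading genes held no microglia marker. It held 197, 970 and 397 cells of the infarction libraries and 4, 4 and 43 of the sham libraries. Cluster 14 was shallower (median 957 UMIs) but was named, with the marker C1qa among its leading genes. It held 23.2% of the sham cells of the class and 1.04% of the infarction cells. With cluster 8 counted as microglia-like, 17 members were lower and 2 higher, and Insig1 was called (-0.64, adjusted p 0.0125). This was a second alternative chosen after seeing the data, and the share of all genes called in it is not given. Genes that mark other cell types also differed between the groups in microglia-like cells, and the values do not tell transcripts of other cells from transcripts the cells made themselves. The summed CPM of the 12 microglia markers was 15136 to 17606 in sham and 5858 to 7207 after infarction, with 11 or 12 of them detected and Siglech at 0 in all 3 sham libraries. The 9 phagocytic macrophage markers summed to 48.2 to 121 CPM in sham (6 to 8 detected, Mmp12 at 0) and to 10293 to 14830.3 after infarction (9 of 9). Most of the latter sum was Spp1, at 12068, 8128 and 9779.8 CPM in infarction 1, 2 and 3. Fabp4 was at 80.4, 50.4 and 35.1 CPM and Arg1 at 3.83, 1.88 and 3.35 in these libraries. The 10 smooth muscle markers summed to 763 to 1133 CPM in sham (10 of 10) and to 4.30 to 5.54 after infarction (5 to 8, with Actg2 and Pln at 0), and the 8 choroid plexus markers to 166 to 4993 (Otx2 at 0) and to 3.36 to 5.25 (Aqp1, Kl and Otx2 at 0). Their part in the results was not tested.

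Myelin-forming and astrocytic cells hold many members at high levels, so their markers were measured in microglia-like cells too. The 10 oligodendrocyte markers summed to 566 to 626 CPM in sham and 229.6 to 450.4 after infarction, and the 10 astrocyte markers to 224 to 398 and 139 to 162. In sham 3 the oligodendrocyte markers in microglia-like cells were at 0.888% of their level in oligodendrocyte-like cells. That percentage of the oligodendrocyte-like level comes to 1.32 CPM for Srebf2, which stood at 80.4 CPM in microglia-like cells of sham 3, and to 7.80 of 127 CPM for Msmo1. For Fdps it comes to 9.95 of 166 CPM and for Hmgcs1 to 14.9 of 67.5 CPM. In infarction 2 and 3 the same percentages were 0.761% and 1.11%. The astrocyte markers were at 0.801% to 1.51% of their level in astrocyte-like cells, over the 5 libraries where this could be measured. On that basis the astrocyte-like level comes to 4.5 CPM for Fads1 against 4.32 in microglia-like cells of sham 1, and to 6.76 of 6.96 CPM in sham 3. In sham 3 it comes to 4.15 of 11.9 CPM for Fasn, 5.91 of 26.6 for Srebf1 and 2.23 of 80.4 for Srebf2. For Dhcr7 it comes to 3.00 of 12.2 CPM in sham 3 and for Hmgcs1 to 4.74 of 67.5 CPM. These values use oligodendrocyte and astrocyte markers only. No such values were made for smooth muscle and choroid plexus markers, which differed more between the groups. The part of transcripts of other cells in the results was not tested.

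Other genes of lipid handling, from lists chosen with earlier results of these data known, changed in both directions in microglia-like cells, where 31.3% of all genes tested were called higher and 31.8% lower. No count of these lists is read as particular to the list. Of 10 tested sterol genes outside the 31 members, 4 were higher and 3 lower (median log2 fold change 0.15). Por, the reductase that serves Cyp51, rose from 47.0 ± 3.98 to 95.3 ± 6.0 TMM-adjusted CPM (log2 fold change 1.04, adjusted p 5.72e-06). Ggps1, which extends farnesyl diphosphate for protein prenylation, fell from 36.0 ± 1.75 to 18.8 ± 1.67 (-0.93, adjusted p 4.32e-05). Of 16 tested genes of SREBP control, 3 were higher and 3 lower (median 0.10). Mbtps1, the site-1 protease that makes the first cut of SREBPs, was at 5.03 ± 0.816 and 2.15 ± 0.254 (-1.18, adjusted p 0.00277). Mtor rose by 0.55 on the log2 scale (adjusted p 0.00744).

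Of the genes that store, export or oxidise sterol, Plin2, a lipid droplet coat protein, was at 12.7, 14.1 and 13.8 TMM-adjusted CPM in sham and at 109.8, 88.1 and 83.6 after infarction (log2 fold change 2.78 ± 0.13, adjusted p 1.33e-07). Abca1, the cholesterol exporter, rose from 21.6 ± 3.71 to 67.9 ± 14.9 (1.68, adjusted p 0.000123), and Ch25h, which makes 25-hydroxycholesterol, rose from 409 ± 79.7 to 977 ± 56.9 (1.26, adjusted p 6.61e-05). Transcripts of the lysosomal cholesterol proteins fell: Npc2 from 5486 ± 131 to 1943 ± 301 (-1.50, adjusted p 1.45e-06) and Npc1 from 56.3 ± 6.25 to 29.0 ± 1.79 (-0.96, adjusted p 3.15e-05). As lists, storage and lysosomal genes had 5 higher and 6 lower of 15 tested (median 0.11), and LXR and efflux genes 3 higher and 3 lower of 9 (median 0.34). Ch25h and the cell cycle genes are among the leading genes of cluster 5, so their change is part of what separates the clusters.

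Of 15 tested genes of fatty acid supply, 5 were higher and 6 lower in microglia-like cells (median log2 fold change -0.18). Acsl3 fell from 82.2 ± 4.73 to 41.3 ± 2.44 TMM-adjusted CPM (-0.99, adjusted p 5.28e-06) while its relative Acsl4 rose from 39.3 ± 2.15 to 73.2 ± 11.3 (0.89, adjusted p 8.80e-05); both activate long-chain fatty acids. In the elongation cycle, Hsd17b12 rose (0.99) and Tecr fell (-0.69). Of 15 tested genes of fatty acid oxidation, 3 were higher and 3 lower (median -0.17), with Acadl higher (0.86, adjusted p 1.90e-05) and Acadvl lower (-0.60, adjusted p 0.00221). No list moved in 1 direction as a whole.

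In T or NK-like cells, 0 of the 16 members tested were called, against 8.14% of the 4510 genes tested in that class. At an unadjusted p under 0.05 there was 1 member, Sqle, and DESeq2 called 0. Of all 4510 genes tested, 967 had an unadjusted p under 0.05. Srebf2 was at 95.1, 50.4 and 78.2 TMM-adjusted CPM in sham and at 80.9, 71.9 and 46.0 after infarction (log2 fold change -0.17 ± 0.28, adjusted p 0.787). Insig1 was at 66.8, 31.3 and 68.4 against 49.8, 63.8 and 35.4 (-0.10 ± 0.32, adjusted p 0.903), and Srebf1 at 18.2, 10.9 and 12.2 against 24.9, 22.9 and 7.08 (0.37 ± 0.50, adjusted p 0.735). The groups overlapped for all 3 genes. Genes that mark other cell types differed between the groups here too. The 3 erythroid markers had 0 UMIs in every sham library and in infarction 2, and summed to 23248 CPM in infarction 1 and 13005 in infarction 3. The 10 smooth muscle markers summed to 774 to 1099 CPM in sham (10 of 10 detected) and 3.04 to 8.33 after infarction (1 to 3 detected). The 9 phagocytic macrophage markers summed to 12.4 to 29.0 CPM in sham (2 to 4 detected) and 301 to 555 after infarction (5 to 7 detected, Mmp12 at 0). Among them, Spp1 was at 366, 246 and 164 CPM in infarction 1, 2 and 3. The part of all these markers in these values, and in the difference from microglia-like cells, was not tested. The class held 68 to 141 cells per library, and 1 member was called lower when sham 2 was left out.

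In endothelial-like cells, 0 of 17 members tested were called, against 9.21% of 5909 genes. Cyp51, Sqle, Msmo1 and Acly had an unadjusted p under 0.05, with log2 fold changes of -0.80, -1.14, -1.13 and 0.68, and DESeq2 called 0. Of all 5909 genes tested, 1355 had an unadjusted p under 0.05, so this count of members is no result about them as a group. Srebf2 was at 89.5, 72.8 and 105 TMM-adjusted CPM in sham and at 65.9, 119 and 90.7 after infarction (0.04 ± 0.25, adjusted p 0.963). Scap was at 40.4, 32.9 and 27.0 against 61.5, 37.5 and 27.2 (0.28 ± 0.34, adjusted p 0.705), and Insig1 at 30.6, 33.4 and 31.5 against 30.7, 18.7 and 39.3 (-0.02 ± 0.33, adjusted p 0.992). Their groups overlapped. Srebf1 was at 24, 33.4 and 33.0 against 17.6, 0 and 21.2 (-1.0 ± 0.48, adjusted p 0.222); the 0 comes from 43 cells and allows up to 18.7 CPM, the level of 3 UMIs. In this class the smooth muscle markers summed to 1605 to 2372 CPM in sham and 96.2 to 1178 after infarction. The phagocytic macrophage markers summed to 23.8 to 209 and 444 to 1029.9, with Spp1 at 525, 294 and 274 CPM in infarction 1, 2 and 3. The part of these markers was not tested. When sham 1 was left out, 3 members were called lower in these cells. On simulated counts, changes of 1 log2 unit were found for 59.3% of genes in T or NK-like, 47.8% in endothelial-like and 77.8% in microglia-like cells. Changes of 2 log2 units were found for 97.2%, 90.9% and 99.1%. The simulation held fewer changed genes than the data: in microglia-like cells 90 by 1 unit and 110 by 2, against 6438 of 10212 called. The percentages therefore do not say how often the tests above would find such changes.

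**Figure D4:**
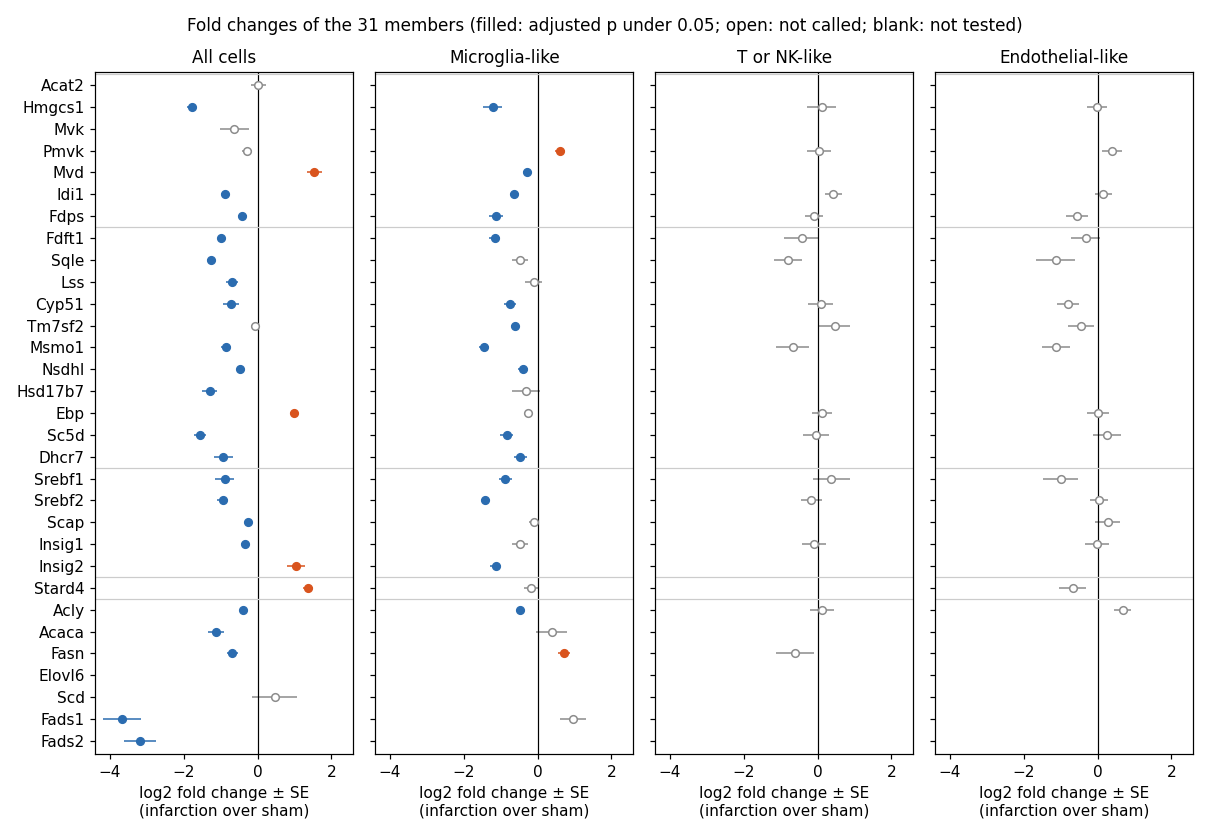
Log2 fold change (infarction over sham) ± SE of each member over all cells and in the 3 tested classes, with filled points for an adjusted p under 0.05, open points for genes not called and blanks for genes not tested. Filled points appear in the first 2 panels only, with 4 higher and 21 lower over all cells and 2 higher and 15 lower in microglia-like cells.

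The difference between the change in microglia-like cells and that in T or NK-like cells was tested directly, in a model with the library as a block. Of the 31 members 24 were tested and 3 were called, all with the lower change in microglia-like cells, against 17.7% of 8437 genes called in either direction, and the members' count, at no larger a share, is no result about them as a group. For Srebf2 the difference was -1.33 ± 0.31 on the log2 scale (adjusted p 0.00136). For Idi1 it was -1.13 ± 0.25 (adjusted p 0.000631). Tested within each class, Idi1 changed by -0.63 in microglia-like cells and by 0.43 ± 0.22, a rise that was not called, in T or NK-like cells. For Fdps the difference was -1.07 ± 0.27 (adjusted p 0.00462). At an unadjusted p under 0.05 there were 12 of the 24 members tested, against 2472 of all 8437 genes tested. Left-out libraries moved this count: 7 members were called lower without sham 1 and 7 without infarction 3, while the call of Fdps was lost without sham 2 (adjusted p 0.0602), infarction 1 (0.0689) or infarction 2 (0.0830).

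The immune classes found mainly after infarction held the members at different levels. In phagocytic macrophage-like cells, Srebf2 was at 15.7, 14.5 and 11.7 plain CPM and Hmgcs1 at 13, 9.43 and 9.97. In dendritic-like cells, Srebf2 was at 107, 69.6 and 91.9 CPM and Hmgcs1 at 119, 115 and 98.4. Fdps was at 84.6 ± 3.85 CPM in the former, 372 ± 85.6 in the latter, 54.1 ± 6.49 in monocyte-like cells and 20.3 ± 5.43 in neutrophil-like cells. Microglia-like cells after infarction, with Srebf2 at 28.1 ± 1.78 CPM, lay close to monocyte-like cells at 25.9 ± 3.98 and did not differ from them beyond the spread. Acat2, the cytosolic thiolase that starts the pathway and had too few UMIs in microglia-like cells, was at 42.1 ± 9.57 CPM in dendritic-like cells.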

How the data were processed

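The deposited values are UMI counts per gene and cell barcode, 1 matrix per library. Per the submitters' processing notes, CASAVA 1.8, Cell Ranger 3.1.0 and Seurat 2.3.4 were used; no source used here gives their order, their settings or the genome build. No cell annotation was used.

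Cells with at least 500 UMIs, 200 genes and at most 20% mitochondrial UMIs were kept (38685), and 842 with a Scrublet score over 0.25 were removed (scanpy 1.11.5). Cells were clustered on 2000 variable genes (30 components, 15 neighbours, Leiden resolution 1), which included 2 members, Fads1 and Hmgcs1. A cluster of mixed neural cells was split further at resolution 0.5, after its markers were seen. Clusters were named from marker lists, each needing at least 3 detected markers. Replicate libraries differed beyond sampling noise (chi-square per degree of freedom 47.9 to 384).

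UMIs were summed per library and class and tested with edgeR 4.0.16 (quasi-likelihood, TMM, filterByExpr, R 4.3.3), with Benjamini-Hochberg adjustment over all genes tested and a threshold of 0.05. Alternatives were RLE scaling, DESeq2 1.42.0, no filter, other cell filters, clusters built without the members, the replicate number as a block, and leaving out each library. The test was checked on simulated counts. Shares of cells were compared with exact permutation tests (scipy 1.17.1). Intervals cover counting error only.

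Values of every library are given for members called with groups that do not overlap, at most 8 in each direction per comparison, and for the 5 sensing genes. Up to 4 genes with the smallest p are named of each of 6 lists of related genes. The members, the lists and the naming rule were chosen with earlier results of these data known. Values by cluster, of immune classes and of oligodendrocyte-like cells were added beyond that rule.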

Additional observations from a re-analysis of the deposited data

Results flagged for a closer look

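Of the 24 members tested, 3 changed differently in microglia-like and T or NK-like cells by a test of the difference itself (edgeR, with the library as a block). The log2 fold change in microglia-like cells minus that in T or NK-like cells was -1.13 for Idi1 (adjusted p 0.000631), -1.07 for Fdps (adjusted p 0.00462) and -1.33 for Srebf2 (adjusted p 0.00136). With each library left out in turn, Idi1 and Srebf2 stayed past the threshold in every fit, and Fdps did not without sham 2, infarction 1 or infarction 2. Over all 8437 genes tested 17.7% were called, so the count of 3 is no result about the members as a group. The T or NK-like cells of infarction 1 and 3 carried erythroid markers at 23248 and 13005 CPM, against 0 in the other libraries, and their part in these differences was not tested.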

How the results depend on the processing

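No named member that was called changed direction under any alternative run for it. Among those not called, Srebf2, Insig1 and Scap in T or NK-like or endothelial-like cells changed sign under some, at log2 fold changes of -0.12 to 0.17. With each library left out in turn, members called lower numbered 15 to 21 over all cells, 12 to 16 in microglia-like cells, 0 to 1 in T or NK-like cells, 0 to 3 in endothelial-like cells and 2 to 7 for the difference between microglia-like and T or NK-like cells; members called higher numbered 4 to 5, 2 to 3, 0 to 0, 0 to 0 and 0 to 1. At most 10% mitochondrial UMIs gave 1 lower member in T or NK-like cells, and no filter on low counts gave 4 in endothelial-like cells, against 0 in each as reported. With the replicate block, 17 members were lower and 4 higher over all cells, 16 and 3 in microglia-like cells, 0 and 0 in T or NK-like cells, and 1 and 0 in endothelial-like cells. Deviations from the group means, over all genes tested, had correlations of -0.07 to 0.11 between libraries with the same number. With 3 libraries in a group these values cannot tell if such libraries share more than a number, and the labels do not say. The cause of the differences between settings was not tested. RLE scaling moved the median of all genes by 0.06 at most. Not run for want of cells were the 10% mitochondrial limit in endothelial-like cells and microglia-like cells without the cycling cluster; for the difference between classes, only left-out libraries were run. Members with few UMIs in a class were not tested there, 15 of 31 in T or NK-like cells and 14 in endothelial-like cells.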

Other observations

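A pair of immune clusters that stayed unnamed held some members at high levels after infarction, given as plain CPM over the 3 infarction libraries. In cluster 24 (364 cells, with Cd24, Siglech, Spib and Ptcra among its leading genes), Mvd was at 165 ± 19.1 CPM, Stard4 at 94.4 ± 25.9, Fdps at 382 ± 58.7 and Srebf2 at 129 ± 15.4 (SD, n = 3). In cluster 17 (683 cells, with Ccl22 and Ccl17), Mvd was at 58.4 ± 11.8 CPM, Stard4 at 50.4 ± 25.2, Fdps at 291 ± 50.9 and Srebf2 at 71.3 ± 9.29. In phagocytic macrophage-like cells the same genes were at 19.5 ± 1.42, 5.72 ± 1.30, 84.6 ± 3.85 and 14 ± 2.09 CPM.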
